A study of Mus musculus with 22 samples.

Results

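The mRNAs held by tagged ribosomes of Drd1-expressing striatal neurons were compared with the RNA of the striatal lysate they were taken from, in 6 wild-type mice. Each wild-type animal gave an anti-EGFP ribosome pulldown, called IP, and an aliquot of the same cleared lysate, called input, so the comparison held 12 of the 22 libraries of the series. IP and input were chosen by genotype and assay labels and paired by animal number (animals 1, 4, 12, 13, 14 and 20). The other 10 libraries were IP and input of 5 mice labelled FMRP mutant (the fragile X gene Fmr1), used here only to ask whether the wild-type values held in other animals. Mice of both genotypes carried EGFP-tagged Rpl10a in Drd1-expressing medium spiny neurons, and all lysates were made in cycloheximide, with nuclei and insoluble membranes spun out before the input was kept. Input is therefore RNA of the cleared lysate of all striatal cell types, tagged cells included. The labels name striatum as the tissue and D1 neurons as the cell type, and they give no age, sex, strain, litter or promoter of the tag.

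Medium spiny projection neurons of the striatum fall into D1 neurons, which express the dopamine receptor Drd1 and the peptides dynorphin and substance P, and D2 neurons, which express the receptors Drd2 and Adora2a and the peptide enkephalin. In ribosome affinity purification, an epitope on a large-subunit protein in a chosen cell type lets its ribosomes be caught from whole tissue together with the mRNAs they carry. RNAs of other cell types and RNAs that ribosomes do not carry are left behind by design, whereas an mRNA made by many cell types can be present in both fractions.

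IP libraries held 9375611 to 82376192 counts, a range of 8.79-fold, with animal 12 lowest and animal 1 highest, and input libraries held 25164548 to 38270808 counts, a range of 1.52-fold. IP over input ratios of single animals correlated at 0.881 to 0.926 across the 8337 genes with a mean of at least 10 CPM (counts scaled by TMM to a common library size), a description across genes that share libraries. Animals 1 and 12 stood apart in cortical mRNA: Slc17a7, the vesicular glutamate transporter of cortical excitatory neurons, was at 17.4 and 69.6 CPM in their IP libraries, against 26.0 and 96.7 CPM in their input libraries. In the other 4 animals Slc17a7 was at 0.0476 to 1.33 CPM in IP and at 0.657 to 3.40 CPM in input.

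Of 15411 genes tested, 4044 (26.2%) rose in IP and 4458 (28.9%) fell, at an adjusted p under 0.05 by edgeR's quasi-likelihood test with the animal as a block. The differences were unequal in size. Only 208 genes (1.35%) rose by at least 2-fold and 15 by at least 4-fold, whereas 2873 (18.6%) fell by at least 2-fold, 1913 by at least 4-fold and 707 by at least 16-fold. The median log2 fold change of all genes tested was -0.06. Without TMM scaling, by library size alone, that median was 0.29, and 6491 genes were called higher and 3035 lower, of which 1160 and 2328 by at least 2-fold. Without animals 1 and 12, 3662 genes were called higher and 4003 lower, of which 196 and 2824 by at least 2-fold. Of the genes called, 85.5% of those that rose and 85.8% of those that fell moved the same way in all 6 animals. In the plot of level against ratio, the genes far from 0 lie almost all below the line.

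**Figure D1:**
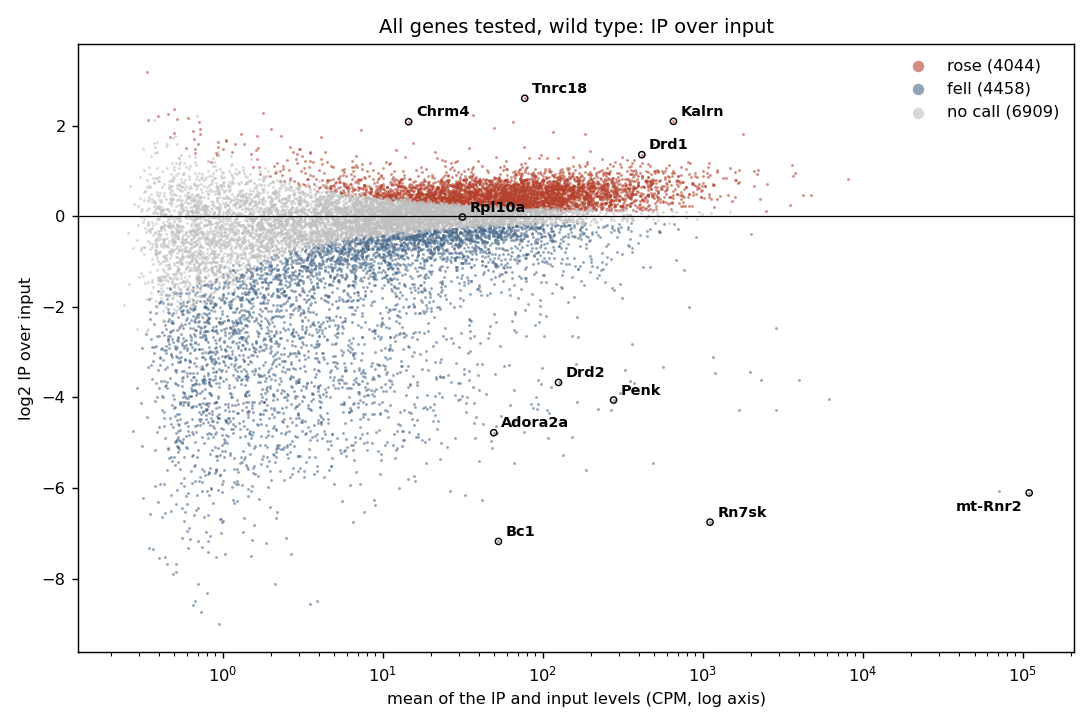
Each point is 1 of 15411 genes in wild type, placed by the mean of its IP and input levels (CPM, log axis) and its log2 IP over input from the paired fit, with genes that rose, fell or had no call in different colours. The genes that rose form a narrow band that seldom passes 2, and those that fell reach below -6, with Bc1, Rn7sk and mt-Rnr2 among the lowest of the abundant RNAs.

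The tagged cells were checked first by the D1 genes. All 10 listed markers were tested and all 10 rose, against 26.2% of all genes tested. Their median log2 fold change was 1.27, with medians of 1.13 to 1.60 in single animals. Drd1 itself, at chr13:54051183-54055705 (GRCm38/mm10, minus strand), had 475 to 695 CPM in IP libraries with a median of 620, against 170 to 288 CPM in input libraries with a median of 237. Every IP library lay above every input library, and the log2 fold change was 1.36 ± 0.077 (SE, n = 6 animals, edgeR adjusted p = 1.68e-09). The share of all genes tested with groups that do not overlap is not given here. Here and below, non-overlap therefore only describes the gene named. Chrm4, the muscarinic M4 receptor of D1 neurons (chr2:91927249-91928688, plus strand), had 18.8 to 27.3 CPM in IP with a median of 24.5, against 4.74 to 6.61 CPM in input with a median of 5.19. Its groups did not overlap either, and its log2 fold change of 2.08 ± 0.16 was the largest of the list (adjusted p = 2.54e-08).

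Pdyn, the dynorphin precursor, had 79.6 to 150 CPM in IP with a median of 114, against 31.5 to 58.2 CPM in input with a median of 51.3, a log2 fold change of 1.29. Tac1, the precursor of substance P, had 309 to 388 CPM in IP with a median of 375, against 174 to 238 CPM in input with a median of 222, a log2 fold change of 0.76. The groups of both peptides did not overlap. Among the regulators, Eya1 (1.58), Ebf1 (1.53) and Isl1 (1.25), transcriptional regulators of which Isl1 and Ebf1 are known for the development of these neurons, rose by more than Zfp521 (0.54), a zinc finger protein. The orphan transporter Slc35d3 rose by 1.19, and the mitochondrial serine carrier Sfxn1 by 0.62. Sfxn1 was the 1 member of the list whose groups overlapped: animal 20 was the highest in both fractions, at 595 CPM in IP and 397 CPM in input, and within each of the 6 animals IP was higher.

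**Figure D2:**
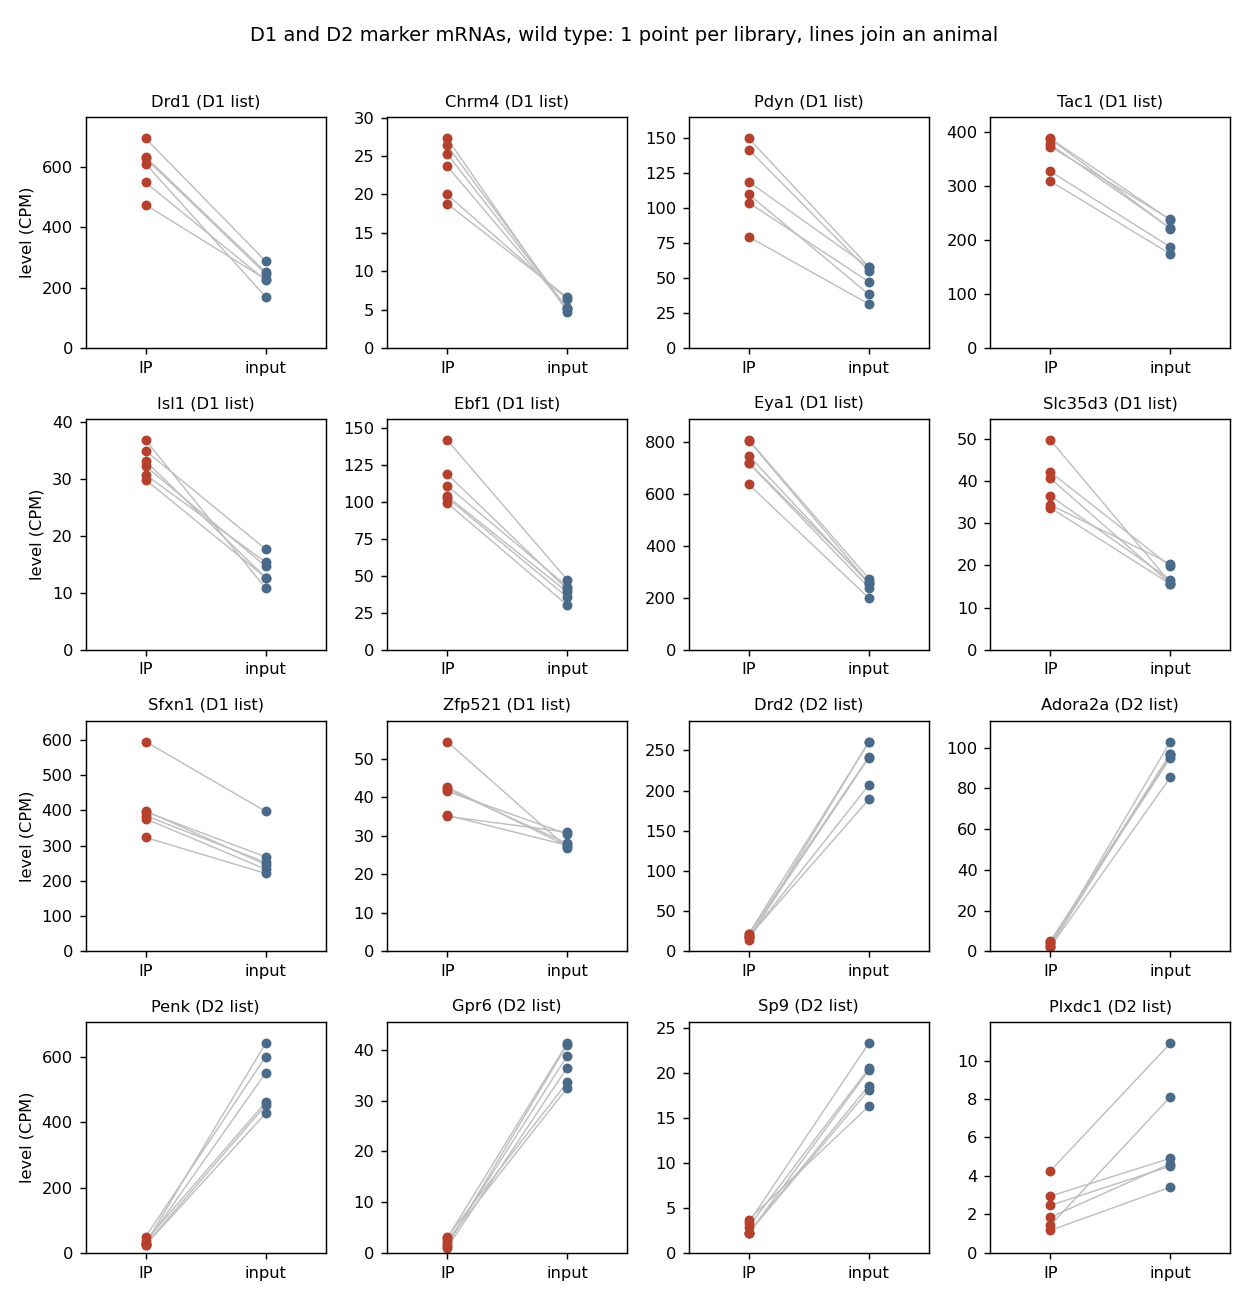
Levels in CPM of the 10 D1 and 6 D2 markers in the 6 IP and 6 input libraries of wild type, on axes that start at 0, with lines joining the libraries of an animal. Every line falls from IP to input for the D1 genes and climbs for the D2 genes, and in the D2 panels the IP points lie near the bottom of the axis for Drd2, Adora2a, Penk and Gpr6.

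D2 genes were lower in IP in every animal. All 6 listed D2 markers tested fell, with a median log2 fold change of -3.86, so that 6.87% of the input level was left at the median, and all 6 fell by at least 2-fold, against 18.6% of all genes. Drd2, the D2 dopamine receptor (chr9:49340627-49408177, plus strand), had 13.5 to 21.7 CPM in IP with a median of 17.9, against 189 to 261 CPM in input with a median of 242. The log2 fold change was -3.67 ± 0.099 (adjusted p = 2.61e-13), and 7.85% of the input level was left. Adora2a, an adenosine receptor of D2 neurons (chr10:75316877-75334784, plus strand), had 2.09 to 4.86 CPM in IP with a median of 3.41, against 85.5 to 103 CPM in input with a median of 96.6, which left 3.64%. In neither gene did an IP library come near an input library.

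Penk, the enkephalin precursor, had 24.2 to 49.0 CPM in IP with a median of 28.5, against 428 to 643 CPM in input with a median of 507, a log2 fold change of -4.06. Of its exon bases, 14.3% overlap another gene, and the libraries do not mark the strand. Gpr6, an orphan receptor of D2 neurons, fell by 4.21 on the log2 scale, and Sp9, a transcription factor needed for D2 neurons, fell by 2.85. Plxdc1 fell least, by 1.37, with 1.17 to 4.26 CPM in IP against 3.42 to 10.9 CPM in input, and its groups overlapped. On a scale per length, Drd1 averaged 978 ± 130 TPM (SD, n = 6) and Drd2 42.5 ± 6.84 TPM in IP, whereas in input the levels averaged 409 TPM for Drd1 and 578 TPM for Drd2. In these bulk samples, fewer cells of a type and less RNA per cell cannot be told apart.

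Genes that D1 and D2 neurons share rose, by less than the D1 markers. All 17 projection neuron markers rose, with a median log2 fold change of 0.70, against 26.2% of all genes. Bcl11b, the transcription factor also called Ctip2, had 547 to 599 CPM in IP with a median of 574, against 192 to 282 CPM in input with a median of 266, a log2 fold change of 1.16. Pde10a, the phosphodiesterase that breaks down cAMP in projection neurons, had 4380 to 5740 CPM in IP with a median of 4860, against 1600 to 2560 CPM in input with a median of 2340, a log2 fold change of 1.13. Neither gene's groups overlapped. Rgs9, a brake on G protein signalling, rose by 0.82, and Gnal, the G protein subunit that couples Drd1 to adenylyl cyclase, by 0.76.

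Of 15 pan-neuronal genes, 11 rose and 1 fell, against 26.2% and 28.9% of all genes tested, with a median of 0.42. Nefl, a neurofilament subunit, rose by 1.16, with 32.8% of its exons overlapped by another gene. Of 22 striatal transcription factors, 16 rose and 5 fell, against the same shares of all genes. Foxp2 had 466 to 569 CPM in IP with a median of 530, against 202 to 246 CPM in input with a median of 226, and rose by 1.24. The 5 that fell were Sp8, Sp9, Dlx1, Dlx2 and Ikzf2, of which Sp8, Dlx1 and Dlx2 are known from forebrain interneurons and their progenitors. Dlx1 fell by 3.28 and Ikzf2, an Ikaros family factor, by 2.21.

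Of 5 genes of striosomes and exopatches, 2 rose, against 26.2% of all genes tested, with a median of 0.31. These 2 were Tshz1, a zinc finger protein (0.80), and Lypd1, a modulator of nicotinic receptors (0.37). Lypd1 lost its call without animal 4, 12 or 20 (edgeR adjusted p = 0.0603, 0.0618 and 0.0539). Oprm1, the mu opioid receptor of striosomes, had 8.21 to 14.1 CPM in IP against 6.17 to 12.5 CPM in input, without a call (0.31 ± 0.14, adjusted p = 0.0789). Of 6 genes of eccentric projection neurons, 3 rose, with a median of 0.49. They were Casz1 (1.18), Otof (1.04) and Adarb2 (0.66), at IP medians of 4.14, 10.6 and 25.9 CPM. Without animals 1 and 12, Adarb2 was at 0.35 with an edgeR adjusted p of 0.0519.

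Markers of striatal interneurons and glia fell almost throughout. All 12 interneuron markers tested fell by at least 2-fold, against 18.6% of all genes. Their median was -4.73, so that 3.77% of the input level was left at the median. Sst, the somatostatin precursor, had 1.12 to 2.87 CPM in IP with a median of 1.85, against 48.6 to 71.6 CPM in input with a median of 52.2. Pvalb, the calcium buffer of fast-spiking interneurons, had 0.0295 to 1.11 CPM in IP with a median of 0.424, against 6.12 to 19.0 CPM in input with a median of 8.56. Nos1, the nitric oxide synthase, fell least of these markers, by 2.28, with 8.61 to 15.4 CPM in IP against 48.8 to 64.3 CPM in input.

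Of 9 cortical excitatory markers, 3 fell and 1 rose, against 28.9% and 26.2% of all genes tested. The median of single animals ran from -2.93 in animal 4 to 0.20 in animal 12. Slc17a7 fell by 1.14 over the 6 animals, and in animals 1 and 12, where it was abundant, its log2 ratios were -0.57 and -0.47. Rorb, a nuclear receptor of layer 4 neurons, fell by 3.48. Syt6, a synaptotagmin used as a marker of deep cortical layers, had 311 to 448 CPM in IP with a median of 379, against 155 to 257 CPM in input with a median of 252, and rose by 0.72. How far cortical tissue in animals 1 and 12 bears on these values was not tested.

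All 15 oligodendrocyte markers fell by at least 2-fold, against 18.6% of all genes, with a median of -5.10 and 2.91% of the input level left. Mog, a myelin surface glycoprotein, had 0.255 to 1.95 CPM in IP with a median of 0.849, against 46.9 to 57.1 CPM in input with a median of 52, and fell by 6.07. Sox10, the lineage's transcription factor, fell by 5.73. All 8 precursor markers fell, with a median of -4.80, and Pdgfra, the growth factor receptor that defines the precursors, fell by 3.59. All 14 microglia markers fell, 13 of them by at least 2-fold, with a median of -5.12: the protease Ctss had 0.206 to 0.905 CPM in IP with a median of 0.298, against 16.1 to 29.8 CPM in input with a median of 25.7.

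Of 14 astrocyte markers tested, 13 fell by at least 2-fold, against 18.6% of all genes, and 1 rose. Their median was -3.60, with 8.24% left. Glul, glutamine synthetase, had 52.7 to 69.5 CPM in IP with a median of 55.2, against 526 to 640 CPM in input with a median of 625. Apoe, the lipid carrier, fell by 4.34. The exception was Slc4a4, a sodium bicarbonate cotransporter, with 264 to 346 CPM in IP and a median of 329, against 207 to 291 CPM in input and a median of 231. Its groups overlapped, it was higher in IP within each of the 6 animals, and its log2 fold change was 0.43 ± 0.062 (adjusted p = 2.68e-05).

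Of 9 endothelium markers tested, 4 fell, against 28.9% of all genes, with a median of -2.09. Of 7 markers of mural cells and fibroblasts, 5 fell, with a median of -3.40. The pericyte regulator Rgs5 led these 5 in abundance (1.84 to 6.43 CPM in IP against 33.5 to 48.0 CPM in input). Of 6 markers of ependyma and choroid plexus, 4 fell, with a median of -4.30. Ttr, the choroid plexus transthyretin, had 0.148 to 24.8 CPM in IP, against 6.76 to 2130 CPM in input, with groups that overlapped and an input level that varied widely between animals. All 4 globin and red cell genes tested fell, and Hbb-bs, adult beta globin, had 1.30 to 5.07 CPM in IP against 51.0 to 193 CPM in input. By the labels the tag is in Drd1-expressing neurons, and what remained of their mRNAs in IP, between 2.87% at the median microglia marker and 8.24% at the median astrocyte marker among the glial lists, was not traced to a source.

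**Figure D3:**
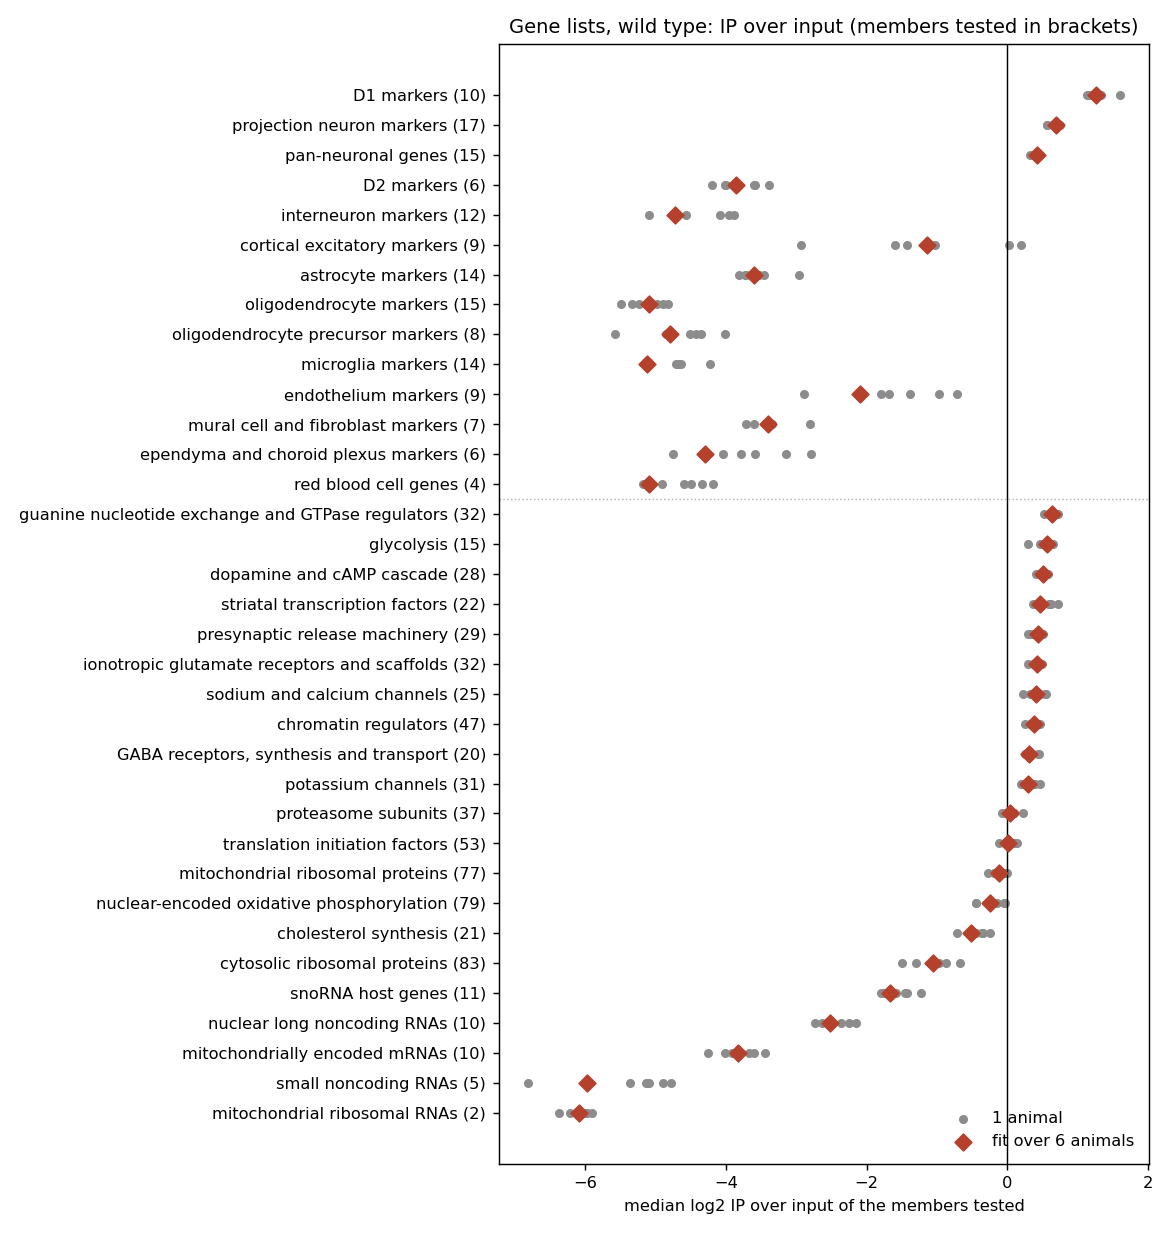
Median log2 IP over input of the tested members of 35 gene lists in wild type, with red diamonds for the fit over 6 animals and grey points for the same median within each animal. Cell type lists stand above the dotted line and functional and RNA class lists below it. D1 markers lie furthest right at 1.27, glial lists lie between -3.60 and -5.12, and the cortical list has the widest spread between animals.

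Of 35 G protein-coupled receptors tested, 16 rose and 10 fell, with a median of 0.31. Of all genes tested, 26.2% rose and 28.9% fell, so the share that fell was near that of all genes. Among dopamine receptors, Drd1 rose, Drd2 fell and Drd5, a D1-class receptor known from interneurons, was at 0 to 0.556 CPM in IP against 0.490 to 1.64 CPM in input, with 48.6% of its exons overlapped by another gene. Drd3, named after its values were seen, rose by 1.81. Among muscarinic receptors, Chrm4 rose, and Chrm2, the autoreceptor of cholinergic interneurons, fell by 3.21, with 0.151 to 6.02 CPM in IP against 5.57 to 10.1 CPM in input. Among receptors for opioids and tachykinins, Oprd1, the delta opioid receptor, fell by 2.94, and Tacr1, the receptor for substance P, by 2.99. Tacr3, the neurokinin B receptor, fell by 3.14 and the serotonin receptor Htr4 by 1.40.

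Most genes of dopamine and cAMP signalling rose. Of 28 tested, 23 rose and 2 fell, against 26.2% and 28.9% of all genes, with a median of 0.51. Other lists had medians of similar size: 0.56 for glycolysis, 0.64 for exchange factors and GTPase regulators, and 0.44 for presynaptic genes. Ppp3ca, the catalytic subunit of calcineurin, had 4330 to 5380 CPM in IP with a median of 5120, against 2040 to 2740 CPM in input with a median of 2680, a log2 fold change of 0.96. Pde7b, another cAMP phosphodiesterase, rose by 0.92. Akap13, an anchor for protein kinase A, fell by 2.02, with 3.13 to 8.44 CPM in IP against 17.7 to 26.9 CPM in input. Prkcb, a protein kinase C isoform outside that list, had 2370 to 3080 CPM in IP with a median of 2740, against 621 to 896 CPM in input with a median of 828, and rose by 1.81 ± 0.050 (adjusted p = 2.74e-13).

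Neuropeptide precursors moved in both directions, 6 up and 6 down of 14, against 26.2% up and 28.9% down of all genes tested. Those that rose included Scg2, a granin of dense core vesicles, by 0.93, and Chgb, another granin, by 0.69, besides Pdyn and Tac1. Those that fell included Penk and Sst. The list's median was -0.31.

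Postsynaptic genes rose in the majority. Of 32 ionotropic glutamate receptors and scaffolds, 21 rose and 8 fell, with a median of 0.42. Among all genes tested, 26.2% rose and 28.9% fell, so the share that fell was near that of all genes. Grin2b, an NMDA receptor subunit, had 1120 to 1420 CPM in IP with a median of 1390, against 594 to 830 CPM in input with a median of 646, and Dlg3, the scaffold SAP102, rose by 1.12. Grin2c, an NMDA subunit known from glia and cerebellum, fell by 3.89, Grin3a by 2.68, and the kainate receptor subunit Grik3 by 3.24. Homer2, an adaptor of metabotropic receptors, fell by 1.58, with 2.89 to 15 CPM in IP against 18.2 to 34.0 CPM in input. Of 20 GABA genes, 14 rose and 4 fell. Gad2, a GABA-synthesising enzyme, rose by 0.80. Slc6a11, the GABA transporter known from astrocytes, fell by 3.72.

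Of 29 presynaptic genes, 19 rose and 2 fell, against 26.2% and 28.9% of all genes tested, with a median of 0.44. Unc13a, a vesicle priming factor, had 218 to 280 CPM in IP with a median of 238, against 116 to 130 CPM in input with a median of 123. Pclo, a giant scaffold of the active zone, had 165 to 219 CPM in IP with a median of 177, against 314 to 389 CPM in input with a median of 352, and fell by 0.96 ± 0.063 (adjusted p = 6.15e-09) in groups that did not overlap. The other that fell was Vamp1, a vesicle SNARE, by 0.70.

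Of 31 potassium channel genes, 16 rose and 10 fell, where 26.2% of all genes tested rose and 28.9% fell. Kcna4, an A-type channel subunit, rose by 1.03 and Kcnd2, another A-type subunit, by 0.95. Kcnj10, the inward rectifier of astrocytes, had 1.27 to 6.38 CPM in IP with a median of 3.85, against 76.7 to 119 CPM in input with a median of 100, and Kcnc2, a fast-spiking interneuron channel, fell by 1.88 and had no call with all 22 libraries as 4 groups (edgeR adjusted p = 0.0697). Of 25 sodium and calcium channel genes, 19 rose and 2 fell. Scn2a, a sodium channel of unmyelinated axons, rose by 1.03, and Scn4b, an auxiliary subunit rich in projection neurons, by 0.79.

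Among called protein-coding genes with a mean of at least 10 CPM and the same direction in all 6 animals, Tnrc18 had the largest rise and Chrm4 was the fifth. Tnrc18, a large chromatin-associated protein (chr5:142724661-142817662, minus strand), had 109 to 165 CPM in IP with a median of 129, against 17.9 to 29.8 CPM in input with a median of 20.9. The groups lay far apart, with a log2 fold change of 2.60 ± 0.097 (adjusted p = 1.17e-11). Bahcc1, a related protein with a bromo-adjacent homology domain, rose by 2.30, although its ratio in single animals ran from 0.87 in animal 4 to 3.08 in animal 12. Gse1 rose by 2.23, with 27.9% of its exons overlapped by another gene, Bcor, a corepressor, by 2.08, the proline-rich protein Prr12 by 1.95, and Nup98, a nucleoporin, by 1.86.

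Kalrn, a guanine nucleotide exchange factor of dendritic spines (chr16:33969073-34573532, minus strand), had 863 to 1180 CPM in IP with a median of 1070, against 201 to 322 CPM in input with a median of 238. It rose by 2.09 ± 0.067 (adjusted p = 1.78e-12) and was the most abundant of the genes that rose by at least 4-fold. Others of the 20 with the largest rise were Cntnap3, a contactin-associated protein (1.52), Impg1 (1.47), Dlk1, a Delta-like protein (1.42), the exchange factor Dock4 (1.30) and Klhl34 (1.30). Dlk1 and Impg1 varied widely between animals: Dlk1 had 13.1 to 80.7 CPM in IP with a median of 24.0, against 5.04 to 18.4 CPM in input with a median of 10.2, with groups that overlapped.

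Of 32 exchange factors and GTPase regulators, 28 rose and 3 fell, against 26.2% and 28.9% of all genes tested, with a median of 0.64. Rapgef2, an activator of Rap, rose by 1.18 and Rasgrf1, an activator of Ras, by 1.01. Against these, Rapgef4, a cAMP sensor also called Epac2, had 230 to 291 CPM in IP with a median of 259, against 410 to 699 CPM in input with a median of 634, and fell by 1.13 in groups that did not overlap. Sipa1l2, a Rap regulator, fell by 3.63. Of 47 chromatin regulators, 35 rose and 3 fell, against the same shares of all genes, with a median of 0.38. Arid1b, a subunit of the BAF remodelling complex, rose by 0.94. The remodeller Chd7 fell by 1.04 and the histone methyltransferase Kmt2d by 0.69.

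Of 43 genes of the cytoskeleton and its motors, 25 rose and 10 fell, against 26.2% and 28.9% of all genes tested. Nefm, a neurofilament subunit with 19.2% of its exons overlapped, had 261 to 325 CPM in IP with a median of 282, against 100 to 112 CPM in input with a median of 108, and rose by 1.43. The kinesin Kif21a rose by 1.09. Kif5a, a neuronal kinesin heavy chain, had 376 to 516 CPM in IP with a median of 468, against 729 to 1320 CPM in input with a median of 1200, and fell by 1.19. Macf1, a giant linker of actin and microtubules, fell by 0.80, and Tmsb4x, an actin-sequestering peptide, by 0.97. Stmn1, a tubulin-binding protein of immature neurons, fell by 2.70, with 2.05 to 28.3 CPM in IP against 24.0 to 94.2 CPM in input.

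The mRNAs that were most abundant on the D1 ribosomes were mostly present at high levels in the input as well. Per length, the highest 3 protein-coding genes in IP were Calm2 (15450 TPM in IP, 13770 TPM in input), Pcp4 (8833 and 8770 TPM) and Actb (6895 and 4518 TPM). Calm2 encodes calmodulin, and Pcp4 a small calmodulin-binding peptide of projection neurons. Of the 15 highest in IP TPM, 13 rose and 2, Pcp4 and Pcp4l1, had no call. Of all genes tested, 26.2% rose, but the 15 were chosen by their IP level, which favours a rise. The count is therefore only a description. The largest rises among the 15 were those of Ppp3ca (0.96), Rasgrp1, a Ras activator of striatal neurons (0.93), and Ndrg4 (0.88).

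Nuclear protein-coding genes took 96.3% ± 0.505 (SD, n = 6) of the counts in IP and 63.1% ± 5.50 in input. Mitochondrial ribosomal RNA took 0.581% ± 0.0951 in IP and 31.2% ± 5.07 in input. Mitochondrial mRNA took 0.277% ± 0.0373 in IP and 3.18% ± 0.617 in input, and long noncoding RNA 1.02% ± 0.0695 in IP and 1.42% ± 0.135 in input. For each of the 7 classes, all 6 animals moved the same way, and a 2-sided exact sign-flip permutation test gave p = 0.03125 (0.03125 after Benjamini-Hochberg adjustment over the 7 classes), the smallest that 6 pairs allow. The shares of a library add up to its total, so they are not independent. With mitochondrially encoded genes left out of the total, the protein-coding share differed by 1.02 percentage points. The labels name polyA RNA as the molecule.

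**Figure D4:**
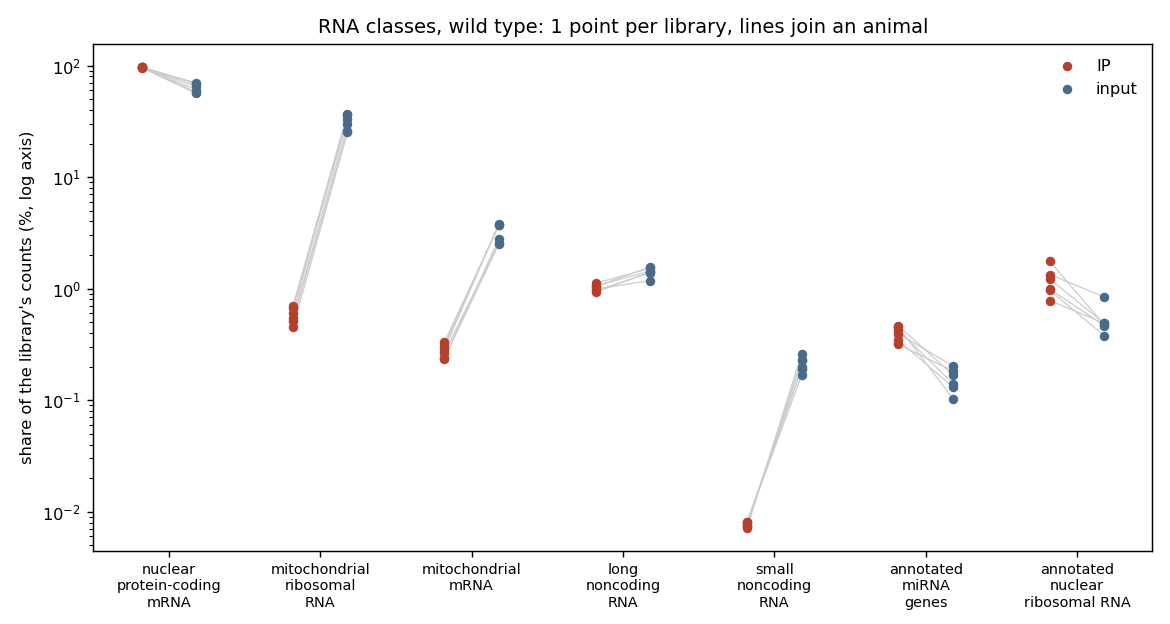
Share of each library's counts, in percent on a log axis, taken by 7 annotated RNA classes in the 6 IP and 6 input libraries of wild type, with lines joining the libraries of an animal. The protein-coding share is 95.5 to 97.0% in IP and 56.5 to 69.8% in input, and the small noncoding share is 0.00724 to 0.00812% in IP and 0.167 to 0.259% in input.

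Both mitochondrial ribosomal RNAs fell in all animals: mt-Rnr2 had 3095 ± 456 CPM in IP and 216400 ± 50210 CPM in input (SD, n = 6), a log2 fold change of -6.11 ± 0.068 (adjusted p = 1.19e-17). All 10 mitochondrially encoded mRNAs tested fell by at least 2-fold, against 18.6% of all genes, with a median of -3.83. Mitochondria translate these mRNAs on their own ribosomes, which hold no Rpl10a. mt-Cytb, an apoprotein of complex III, had 218 to 328 CPM in IP with a median of 282, against 4000 to 7040 CPM in input with a median of 5530, and 5.18% was left. mt-Atp8 had 0 reads in the 6 IP libraries against 776 in the 6 input libraries, and its input level ran from 0.0692 to 21.8 CPM between animals, so no fold is given. Its position overlaps that of a neighbouring mitochondrial gene.

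Several RNAs that do not encode protein were among those that fell most. Of the 707 genes that fell by at least 16-fold, however, 569 were protein coding. All 5 small noncoding RNAs tested fell, against 28.9% of all genes, with a median of -5.97. Bc1, a rodent RNA polymerase III transcript that is carried into dendrites and represses translation, had 0.515 to 1.14 CPM in IP with a median of 0.651, against 86.6 to 133 CPM in input with a median of 101. Its log2 fold change of -7.18 ± 0.12 (adjusted p = 1.43e-15) left 0.690% of the input level. Its sequence is shown because its 5′ part is repetitive, which bears on how reads could be assigned to it: it lies at chr7:144914470-144914637 on the plus strand (GRCm38/mm10, transcript from GENCODE vM21). Lower case marks bases in 20-base stretches that also occur, on either strand, in transcripts of 2017 other genes, and capitals mark the last 38 bases, positions 131 to 168 from the 5′ end, which do not.
Bc1: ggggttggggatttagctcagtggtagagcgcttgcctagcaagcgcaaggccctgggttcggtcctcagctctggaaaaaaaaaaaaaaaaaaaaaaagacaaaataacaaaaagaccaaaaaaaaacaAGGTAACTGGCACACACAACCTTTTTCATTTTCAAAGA

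Rn7sk, the nuclear RNA that holds the elongation factor P-TEFb inactive, had 18 to 25.9 CPM in IP with a median of 19.4, against 1780 to 2600 CPM in input with a median of 2160, which left 0.926%. Rmrp, the RNA of an endoribonuclease, fell by 4.98, with 45.8% of its exon overlapped by another gene. Of 10 nuclear long noncoding RNAs, 9 fell, against 28.9% of all genes tested, with a median of -2.52. Meg3, an imprinted nuclear RNA, had 39.1 to 53.8 CPM in IP with a median of 43.2, against 227 to 400 CPM in input with a median of 277, and Neat1, the scaffold of paraspeckles, fell by 2.57. Of 11 snoRNA host genes, 10 fell, with a median of -1.67. Gas5, whose spliced RNA has a short 5′ reading frame and is known to bind ribosomes, had 122 to 206 CPM in IP with a median of 157, against 387 to 510 CPM in input with a median of 446, which left 35.6%. Tug1, a long noncoding RNA outside these lists, rose by 0.56, with 11.6% of its exons overlapped by another gene.

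Among the noncoding genes that rose with a mean of at least 10 CPM, the largest rise was at an annotated microRNA gene. Mir6236 had 139 to 473 CPM in IP with a median of 282, against 60.7 to 106 CPM in input with a median of 77.2, and rose by 1.82 ± 0.21 (adjusted p = 2.78e-04). The groups did not overlap, and the ratio of single animals ran from 0.91 in animal 20 to 2.56 in animal 12. The counts are reads on the annotated gene of 123 bases at chr9:110281287-110281409, plus strand, and not of the mature microRNA, which libraries of this kind are not made to capture. The mature sequence in RefSeq (GRCm38.p6, chr9:110281353-110281371, plus strand) is shown with its seed, bases 2 to 8, in capitals.
mmu-miR-6236: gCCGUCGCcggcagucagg

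Annotated nuclear ribosomal RNA took 1.18% ± 0.345 of IP counts and 0.523% ± 0.162 of input counts. Annotated miRNA genes together took 0.399% ± 0.0595 of IP counts and 0.155% ± 0.0364 of input counts. The relation between these classes was not tested.

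Messages for the ribosome itself were lower on the tagged ribosomes. Of 83 cytosolic ribosomal protein genes tested, none rose and 79 fell, against 26.2% and 28.9% of all genes. By at least 2-fold, 48 fell, against 18.6% of all genes. The median log2 fold change was -1.06, with medians of -1.49 in animal 12 to -0.67 in animal 1. At the median, 48.1% of the input level was left. Rps2, a small-subunit protein, had 55.9 to 75.6 CPM in IP with a median of 66.2, against 170 to 210 CPM in input with a median of 201, and fell by 1.57 ± 0.058 (adjusted p = 1.06e-11). Rpsa, the laminin receptor subunit, fell by 1.49 and Rps24 by 1.43. Many of these genes have near-identical pseudogene copies in the genome, and how reads with several matches were counted is not given in the sources used here, so single members are uncertain.

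Rpl10a, whose protein carries the tag, stood at the top of the list. It had 28.1 to 35.4 CPM in IP with a median of 30.3, against 26.3 to 39.9 CPM in input with a median of 31.7, in groups that overlapped (-0.02 ± 0.11, adjusted p = 0.898), and its log2 fold change was 0.32 by library size alone. The other 82 had a median of -1.06 and an SD of 0.34 across genes, and Rpl10a ranked between 1 and 3 of 83 within each of the 6 animals. Reads of the fusion mRNA and of the native mRNA share the Rpl10a sequence, so they cannot be told apart in a count per gene.

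Ribosomal proteins have short reading frames, and short reading frames as a whole had lower IP over input than long ones. The sign of such medians depends on the scaling: the median of all genes was -0.06 with TMM and 0.29 by library size alone. Medians by coding length were not computed by library size alone. Among 13200 protein-coding genes with an annotated coding length, divided into 10 groups of 1320 by that length, the group with the shortest coding sequences, of 408 bases at the median, had a median log2 fold change of -0.38, and 8.33% of it rose. The medians were -0.14 in the third group, 0.04 in the fifth and 0.26 and 0.24 in the ninth and the last, where 46.9% and 48.2% rose. Spearman's rank correlation between coding length and log2 fold change was 0.273 across these genes, and 0.187 to 0.269 within single animals. It was 0.13 for the length of the 3′ UTR and -0.04 for transcript GC, and genes of 1 sample are not independent replicates. The 5535 other protein-coding genes with coding sequences of up to 1257 bases, the longest among the ribosomal proteins, had a median of -0.19, against -1.06 for the 83 ribosomal protein genes. Whether coding length bears on the fall of the ribosomal protein genes was not tested.

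**Figure D5:**
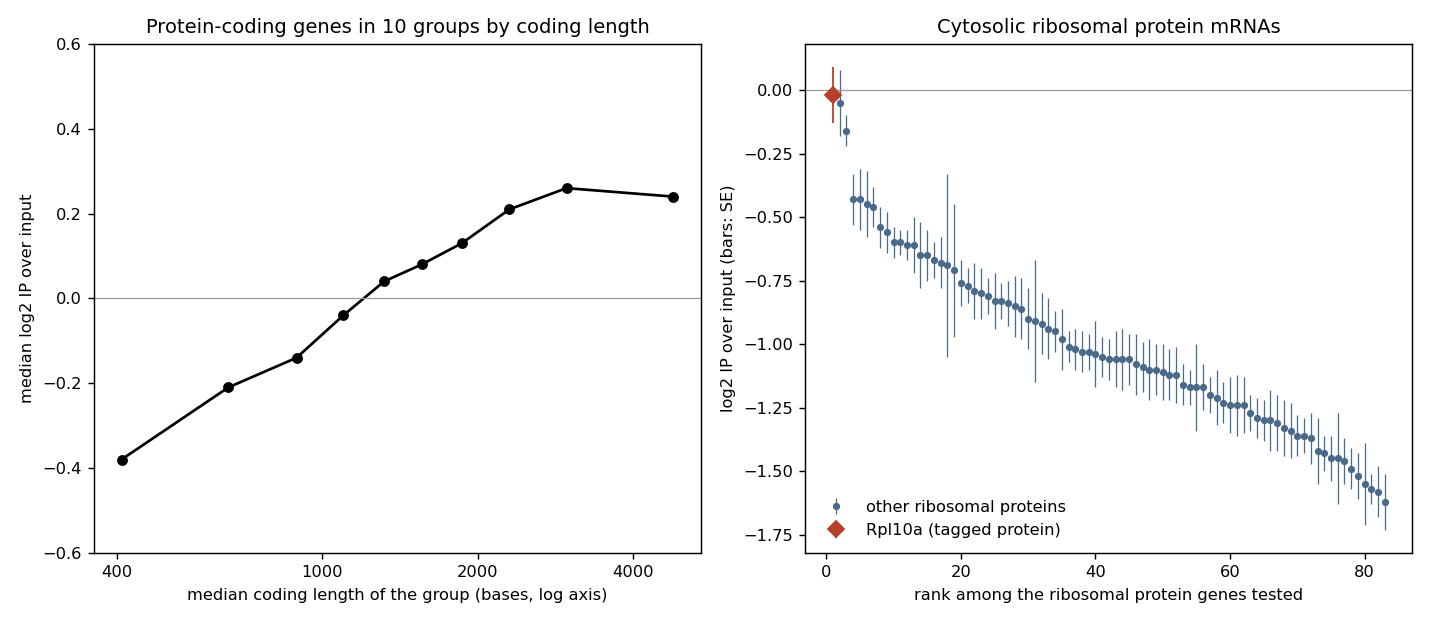
Left, median log2 IP over input of protein-coding genes in 10 groups by coding length (bases, log axis), wild type. Right, log2 IP over input with SE (6 animals) of the 83 cytosolic ribosomal protein genes tested, ordered from highest to lowest, with Rpl10a marked by a diamond. The left curve climbs from -0.38 to 0.26, and on the right Rpl10a at -0.02 stands first of 83 with most others below -0.5.

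Of 53 initiation factor genes, 15 rose and 14 fell, with a median of 0.01, shares near the 26.2% and 28.9% of all genes tested. Eif4g1, the scaffold of the cap-binding complex, was at 0.76 and Eif3c at 0.73, and Eif3h fell by 0.60 and Eif4ebp2, a repressor of cap-dependent translation, by 0.88. Eif4ebp1, its relative, was at 0 to 0.211 CPM in IP against 0.546 to 1.87 CPM in input. Of 12 elongation factor genes, 1 rose and 5 fell, with a median of -0.15 that was 0.19 by library size alone. The pair of alternative elongation factors moved apart: Eef1a2, the form of mature neurons, had 215 to 283 CPM in IP with a median of 251, against 133 to 179 CPM in input with a median of 161, and rose by 0.67. Eef1a1, the form of most other cells, had 685 to 852 CPM in IP with a median of 784, against 918 to 1200 CPM in input with a median of 1060, and fell by 0.46, which was -0.11 by library size alone (edgeR adjusted p = 0.211). Neither pair of groups overlapped.

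Of 37 proteasome subunits, 12 rose and 3 fell, where 26.2% of all genes tested rose and 28.9% fell. The 3 that fell were Psmb8, Psmb9 and Psmb10, the catalytic subunits of the immunoproteasome, by 3.10, 3.55 and 1.51, and their highest IP levels were 0.596, 0.648 and 5.00 CPM. Of 15 glycolysis genes, 12 rose and 1 fell, with a median of 0.56. Hexokinase Hk1 (0.74, chosen after its values were seen) and the phosphofructokinase Pfkp (0.65) rose most. Of 79 nuclear-encoded genes of oxidative phosphorylation, 8 rose and 40 fell, with a median of -0.24 that was 0.11 by library size alone. Among them Atp5a1, the alpha subunit of ATP synthase, rose by 0.59, and the small subunit Atp5e fell by 0.69 and Atp5j fell by 0.65. Of 77 mitochondrial ribosomal proteins, 9 rose and 19 fell, with a median of -0.12 that was 0.22 by library size alone. The share of these that fell was near the 28.9% of all genes tested.

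Of 21 genes of cholesterol synthesis and uptake, 12 fell and none rose, against 28.9% and 26.2% of all genes tested. Their median was -0.52. Sc5d, a sterol desaturase, had 11.1 to 17.9 CPM in IP with a median of 13.6, against 28.7 to 37.2 CPM in input with a median of 30.9, and fell by 1.20. Cyp51, an earlier enzyme of the pathway, fell by 0.91. Of 23 chaperones and translocon genes of the endoplasmic reticulum, 5 rose and 6 fell, shares near those of all genes tested. Their median was -0.02. Ssr4, a translocon-associated subunit, fell by 0.84 and the disulfide isomerase Pdia6 rose by 0.56.

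Of 36 replication-dependent histone genes tested, whose mRNAs end without a poly(A) tail, 9 rose and 8 fell, shares near those of all genes tested (26.2% and 28.9%). By at least 2-fold, 8 rose and 5 fell, against 1.35% and 18.6% of all genes, so the share that rose by that much was higher. Hist1h4c had 15.9 to 33.7 CPM in IP with a median of 24.0, against 5.65 to 9.51 CPM in input with a median of 7.61, and rose by 1.61. Hist1h4d, which encodes the same histone H4, had 106 to 200 CPM in IP with a median of 132, against 33.9 to 86.3 CPM in input with a median of 54.2, and rose by 1.35. Hist2h2be, a histone known for a polyadenylated form, fell by 2.25. These genes are near-identical copies, so reads may be split between them. The list's median was 0.22, and -0.20 when only genes with at least 1 CPM in at least 6 libraries were kept.

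Immediate early genes rose in most cases, 12 of 19 with 2 falling and a median of 0.51. Among all genes tested, 26.2% rose and 28.9% fell. Egr1, an activity-induced transcription factor, had 773 to 1580 CPM in IP with a median of 1030, against 431 to 840 CPM in input with a median of 564. The groups overlapped, and within animals the log2 fold change was 0.86 ± 0.057 (adjusted p = 6.62e-09). Nr4a3 rose by 0.96 and Egr3 by 0.78. Jun, an AP-1 subunit, had 2.24 to 9.89 CPM in IP with a median of 6.20, against 12.2 to 20.1 CPM in input with a median of 15.8, and fell by 1.49. Ier2 fell by 2.35, with 0 to 0.741 CPM in IP and 0.435 to 1.41 CPM in input, and had no call with all 22 libraries as 4 groups (edgeR adjusted p = 0.0707).

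A few mRNAs of the input had almost no reads in IP. Besides mt-Atp8, the protein-coding genes with the highest input levels among those with at most 3 reads over the 6 IP libraries were mt-Co2, Naprt, Trim12c, Dnali1, Calml4, Tex52, Mboat1, Pld4 and Vav1. The mitochondrial mt-Co2 averaged only 7.05 CPM in input, from 2.42 to 20.3 CPM between animals, where mt-Cytb had a median of 5530 CPM. Whether all reads of mt-Co2 were assigned to it was not tested. Calml4 had 0 IP reads against 303 input reads, which makes it at least 140.8-fold lower at a floor of 3 reads over the IP group. Dnali1 is a dynein light chain of motile cilia, Pld4 and Vav1 are known from immune cells, and Naprt is an enzyme of NAD synthesis. Their input levels averaged between 1.63 and 2.07 CPM for the 8 nuclear genes.

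The same comparison was made in the 5 mutant mice, which are other animals. Of the 4044 genes that rose in wild type, 3459 were called higher in mutant IP than in mutant input, and of the 4458 that fell, 3690 were called lower. Of those at least 2-fold apart in wild type, 161 of 208 were called higher and 2549 of 2873 lower in the mutant. No 2-fold limit was set on the mutant values. The share of all genes tested that was called in the mutant is not given here. The counts of genes called in both genotypes therefore only describe an overlap. Of the 15 genes that rose by at least 4-fold in wild type, 8 were called higher in the mutant. The log2 fold change was 1.62 in the mutant and 1.36 in wild type for Drd1, and -3.54 in the mutant and -3.67 in wild type for Drd2. The difference of IP over input between mutant and wild type passed an adjusted p of 0.05 for 0 of 17311 genes by edgeR's quasi-likelihood test, with 777 at an unadjusted p under 0.05 and a smallest adjusted p of 0.128. DESeq2 called 5 and limma-voom 0. Fmr1, the mutated gene and 1 of those 5, had a log2 IP over input of -0.40 in the mutant and 0.41 in wild type, and its difference of -0.83 had an adjusted p of 0.128 by edgeR.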

How the data were processed

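Counts per gene for 22 libraries were deposited by the authors and used as deposited, with 12 wild-type libraries in the main comparison. Per the submitters' processing notes, STAR, featureCounts and the mm10 build were used, and per the labels' protocols the kit did not mark strand and all pulldowns and sequencing were 1 batch. How reads with several matches were counted is not given in the sources used here. All 55341 symbols matched GENCODE vM21, used for lengths, types and coordinates.

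Genes passing edgeR's filterByExpr (15411) were tested with edgeR 4.0.16 (R 4.3.3) by the robust quasi-likelihood test with TMM scaling, the animal as a block and Benjamini-Hochberg adjustment, called at 0.05. The animal numbers pair the libraries: deviations of the IP and input library of an animal from the group means correlated at 0.239 to 0.482 over 8337 genes. The difference between mutant and wild type was an interaction over 22 libraries, and the mutant IP over input values came from that fit. DESeq2 1.42.0 and limma 3.58.1 (voom) were alternatives, beside other scalings, filters and omitted animals. Levels are CPM with TMM factors, and TPM over nuclear protein-coding genes. The fit was also run on simulated counts with equal numbers of genes raised and lowered. That setting does not check the scaling where changes are unequal, as they were here.

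Named genes were the D1 and D2 markers with Rpl10a, the 20 protein-coding and 8 other genes with the largest change in each direction (adjusted p under 0.05, mean of at least 10 CPM, same direction in 6 animals), the 15 highest in IP TPM, the 4 members of each list with the smallest p and members that moved against it, the 10 most variable genes and the 10 lost from IP. The members and lists were chosen with earlier results of these data known. The authors' deposited tables of mutant against wild type were not used here. A few genes that this rule names are not reported here.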

Additional observations from a re-analysis of the deposited data

Results flagged for a closer look

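In 15 of 259 sets of 6 animals or libraries, the highest or lowest value lay further from its nearest neighbour than Dixon's 95% limit allows, which chance gives in about 1 in 20. All values of genes are log2 IP over input within an animal. Animal 12, the shallowest IP library, was apart in 6 of them: Drd1 at 1.85 (others 1.06 to 1.35), Bcl11b at 1.60 (1.00 to 1.16), Pde7b at 1.26 (0.81 to 0.92), Hist2h2be at -3.99 (-2.32 to -1.43), mt-Co2 at -8.33 (-6.33 to -5.30), and the median of the small noncoding RNAs at -6.81 (-5.36 to -4.78). Animal 14 was apart for Drd3 at 0.42 (1.63 to 2.18), Eif4ebp2 at -1.46 (-0.92 to -0.62) and Pvalb at -6.59 (-4.28 to -3.89). Animal 20 was apart for Grin2c at -2.49 (-4.31 to -3.66) and Naprt at -3.37 (-5.39 to -4.94), animal 1 for Dlg3 at 0.80 (1.11 to 1.24), animal 4 for Egr1 at 0.55 (0.84 to 1.02) and animal 13 for Rasgrf1 at 1.19 (0.92 to 1.02). Annotated nuclear ribosomal RNA took 0.843% of the input counts of animal 1, against 0.378 to 0.489% in the other 5 input libraries.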

How the results depend on the processing

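By library size alone, 6491 genes were called higher in IP, 1160 of them by at least 2-fold, and the medians of mitochondrial ribosomal proteins, oxidative phosphorylation and elongation factors turned to 0.22, 0.11 and 0.19. Without the replicate block for the animal, 3661 genes were called higher and 4155 lower, and Slc17a7 (-0.62), Adarb2 (0.70), Lypd1 (0.35), Pdia6 (0.52), Cpne4, Hivep1 and Pter lost their calls. Leaving out each animal in turn gave 3690 to 3932 genes higher and 4089 to 4274 lower. The difference between genotypes gave 5 genes by DESeq2 and 0 to 1 with an animal left out. The protein-coding share differed by 1.025 percentage points with mitochondrial genes left out of the total. The histone median was -0.20 with the filter of at least 1 CPM in 6 libraries. Of the single genes, 12 values reversed and 3155 kept direction and side of the threshold. Rpl10a, with no call, was at 0.32 by library size alone, 0.01 with no filter, 0.02 by limma-voom, between -0.09 and 0.07 with an animal left out, and 0.01 without animals 1 and 12. Nr4a2, with no call, was at 1.17 by limma-voom (adjusted p = 0.000774), -0.85 by DESeq2, between -1.05 and 0.55 with an animal left out, and -2.19 without animals 1 and 12. Ext2, with no call, was at 0.51 with no filter (edgeR adjusted p = 0.000365) and -0.22 without animals 1 and 12. The causes were not tested. IP depth, lowest in animal 12, limits values under 1 CPM.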

Other observations

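Some mRNAs that differed most between animals were high in IP of animals 1 and 12, the animals with abundant Slc17a7. Nr4a2, a nuclear receptor, was at 9.66 and 104 CPM in IP of animals 1 and 12, against 3.61 and 41.9 CPM in their input, and in IP of the other 4 it was at 0.0302 to 1.45 CPM. Cpne4, a copine, was at 13.1 and 56.0 CPM in IP of these animals, against 35.7 and 45.3 CPM in their input, whereas the other 4 animals were at 2.35 to 4.70 CPM in IP and at 26.7 to 40.0 CPM in input, so Cpne4 in animal 1 stood apart in IP and not in input.

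Among the protein-coding genes with the largest fall, Ptgds, the prostaglandin D synthase, had 0.278 to 1.95 CPM in IP with a median of 1.22, against 59.1 to 104 CPM in input with a median of 80.3. Gjc3, a connexin of oligodendrocytes, had 0.278 to 1.54 CPM in IP with a median of 0.847, against 53.5 to 73.1 CPM in input with a median of 63.8. Il33, an alarmin cytokine, had 1.24 to 3.61 CPM in IP with a median of 2.81, against 76.9 to 109 CPM in input with a median of 95.7. The groups of these 3 genes did not overlap.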
